A study of Mus musculus with 4 samples.

Results

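Of the 24016 gene rows counted in mouse colon, 58 carried a symbol of the Ugt, Sult or Ces families, and 32 of these were detected, that is, had a mean of at least 0.5 CPM (counts scaled to library size) over the 4 libraries. The members were taken by symbol alone, as rows beginning with Ugt, Sult or Ces and a digit. RNA came from colon pieces of 4 cm from germ-free C57BL/6 mice aged 7 weeks, with 1 library for each of 4 groups: untreated mice, and mice killed 4 h after a gavage of phosphate-buffered saline (PBS), of Escherichia coli at 2e9 cfu/mL or of Lactobacillus rhamnosus GG (LGG), a probiotic strain, at 2e9 cfu/mL. The labels give 4 mice for each gavaged group and no number for the untreated group. Whether 1 library holds RNA from 1 mouse or from several is not stated. The mice of all 4 groups were germ-free, the controls included.

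These families make foreign and endogenous chemicals easier to excrete. UDP-glucuronosyltransferases (Ugt) of the endoplasmic reticulum attach glucuronic acid to bilirubin, steroids, phenols and drugs, cytosolic sulfotransferases (Sult) attach a sulfonate group from the donor PAPS, and carboxylesterases (Ces) split ester and amide bonds of drugs and lipids. The gut epithelium expresses members of all 3, and microbial enzymes in the lumen can release the parent compounds again.

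Each condition had 1 library, so no test between conditions was possible. Every interval below is a 95% counting interval, which covers counting error only and treats counts as independent. Counts of some rows, among them Ces1g, Ugt2b5, Ugt8a and Sult1a1, were even in every library, for a reason not given. If counts come in pairs, these intervals are too narrow even for counting error, and a bound near 0 may not hold. Total counts were 27220697 in untreated colon, 16289580.0 after PBS, 29368008 after E. coli and 29899371 after LGG. A row listed at 0 could thus still hold 0.105, 0.187, 0.103 and 0.103 CPM in these libraries. The untreated library stood apart from the others: 151 to 340 of 14450 genes were past a 2-fold size rule in the pairs that include it, against 40 to 60 in the other pairs. That rule asks for a mean of at least 1 CPM, a log2 ratio of 1 or more in either direction and a counting interval that leaves out 0. Colon epithelium was clearly represented, with the goblet cell mucin Muc2 at 8174 to 10513 CPM and the colonocyte carbonic anhydrase Car1 at 2686 to 3623 CPM. In bulk tissue, fewer cells of a type and less RNA per cell cannot be told apart.

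The 8 rows of the Ugt1a locus cannot be read as 8 separate genes. Each of these transcripts has its own first exon, which encodes the substrate-binding part, joined to the same downstream exons. The junctions are printed to show this, from the GENCODE M21 transcripts on GRCm38, with the last 30 bases of the first exon in lower case and the next 30 bases, from the shared exons, in capitals.
Ugt1a10: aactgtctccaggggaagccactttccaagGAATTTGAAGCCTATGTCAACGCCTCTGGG
Ugt1a9: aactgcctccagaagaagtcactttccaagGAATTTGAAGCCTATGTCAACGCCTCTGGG
Ugt1a7c: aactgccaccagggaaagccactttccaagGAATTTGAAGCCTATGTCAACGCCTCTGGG
Ugt1a6b: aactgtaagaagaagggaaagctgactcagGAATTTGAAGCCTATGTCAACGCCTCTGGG
Ugt1a6a: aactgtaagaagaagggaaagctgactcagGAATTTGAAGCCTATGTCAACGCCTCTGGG
Ugt1a5: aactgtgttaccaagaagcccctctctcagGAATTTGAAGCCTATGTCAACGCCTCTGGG
Ugt1a2: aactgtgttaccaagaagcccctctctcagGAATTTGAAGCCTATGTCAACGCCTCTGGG
Ugt1a1: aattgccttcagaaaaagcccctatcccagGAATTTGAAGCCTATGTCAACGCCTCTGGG
After the first exon, all 8 transcripts were identical over the next 1311 bases. The Ugt1a6b and Ugt1a6a stretches printed are the same in their own part as well, as are those of Ugt1a5 and Ugt1a2. A read from the capitals can therefore be counted in every row.

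The counts showed this sharing directly. The locus lies on chromosome 1 from 89951986 to 90116577 in the deposited mm9 coordinates. The Ugt1a10 row held 11949 counts in untreated colon, 5427 after PBS, 9420 after E. coli and 12167 after LGG. The Ugt1a9 row held 11964, 5429, 9430 and 12178 counts, Ugt1a5 11952, 5429, 9423 and 12172, and Ugt1a2 11952, 5430, 9424 and 12174. The Ugt1a6b row, which ends at 90115573 instead of 90116577, held 11933, 5428, 9406 and 12163 counts. The Ugt1a10, Ugt1a9, Ugt1a5 and Ugt1a2 rows thus carried almost nothing that the shared exons did not supply. For Ugt1a6b this cannot be told, because its row covers less of the shared sequence and its own part was not computed. All 5 counted as detected. Of the rows with the same end as Ugt1a10, only Ugt1a7c, Ugt1a1 and Ugt1a6a stood clearly above the Ugt1a10 row. This subtraction was chosen after the values were seen.

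Within the locus, the part above the shared exons differed between first exons. The whole Ugt1a7c row was at 547, 462, 444 and 545 CPM in the untreated, PBS, E. coli and LGG libraries. Its part above the shared exons was 129 CPM in untreated colon, 124 after PBS, 119 after E. coli and 129 after LGG. These levels were nearly flat, with a log2 ratio of -0.05 (-0.13 to 0.03) for PBS against untreated and 0.06 (-0.02 to 0.13) for LGG against PBS. For Ugt1a1, the enzyme that conjugates bilirubin, it was 79.4 CPM in untreated colon, 39.1 after PBS, 36.6 after E. coli and 52.1 after LGG. The untreated library was the highest and E. coli the lowest, with log2 ratios of -1.02 (-1.15 to -0.89) for PBS, -1.11 (-1.22 to -1.01) for E. coli and -0.61 (-0.70 to -0.51) for LGG against untreated. LGG exceeded E. coli by 0.51 (0.40 to 0.62) and PBS by 0.41 (0.28 to 0.55) on the log2 scale. The whole Ugt1a1 row, of which this part made up 10.1% to 15.9%, showed -0.40 for PBS and -0.46 for E. coli against untreated.

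Ugt1a6a, a phenol-conjugating form, had 23.8 CPM above the shared exons in untreated colon, 15.1 after PBS, 12.6 after E. coli and 19.3 after LGG. Its log2 ratio of E. coli against untreated was -0.91 (-1.10 to -0.73), and LGG against E. coli was 0.62 (0.42 to 0.81). This part is less certain than the others, because 47.4% of the 50-base windows of its first exon also occur in that of Ugt1a6b. For Ugt1a7c the share found in the other 7 first exons was 0.462%, and for Ugt1a1 it was 0. With the mean of the 4 lowest rows as the baseline instead of Ugt1a10, Ugt1a1 stayed at -1.02 for PBS against untreated.

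**Figure D1:**
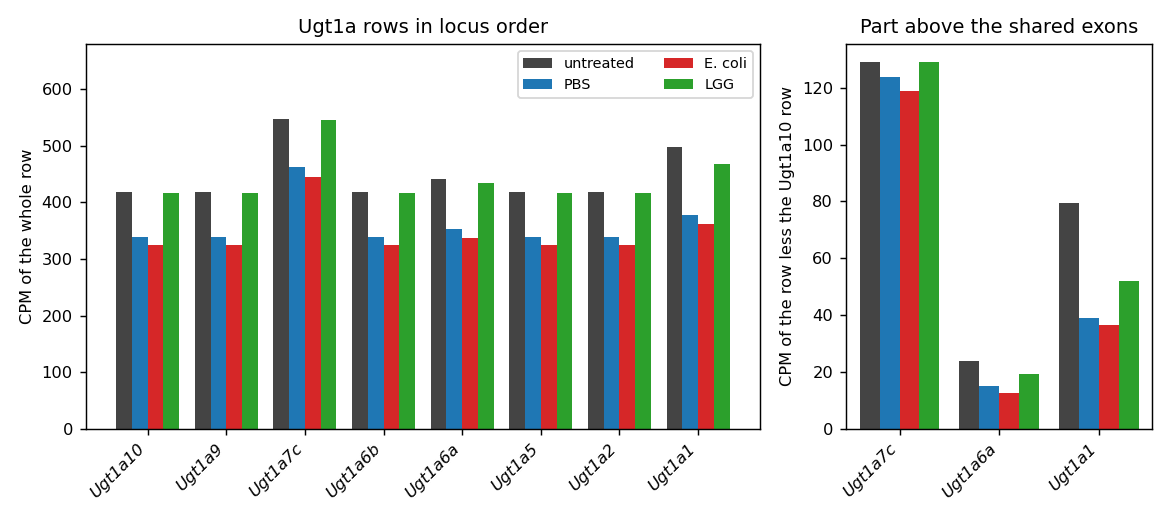
Left, CPM of the whole row for the 8 Ugt1a rows in locus order, 4 bars per row for the 4 libraries. Right, CPM of the Ugt1a7c, Ugt1a6a and Ugt1a1 rows less the Ugt1a10 row; Ugt1a7c lies between 119 and 129 in all libraries, while Ugt1a1 lies at 79.4 in the untreated and at 36.6 to 52.1 in the gavaged libraries.

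Levels between genes were compared as CPM per kb of the listed transcript length, averaged over the 4 libraries. The most abundant row by this measure was Sult1a1, the phenol sulfotransferase, at 182 CPM per kb, followed by the Ugt1a rows at 116 to 164. Ugt2b34 was at 139, Sult1d1, which acts on catecholamines, at 120, Ces2c at 110, Ces2e at 73.9 and Sult1b1, which acts on thyroid hormones, at 63.2. Ces2a followed at 46.4, Sult2b1, a cholesterol and hydroxysteroid sulfotransferase, at 25.4, Ces1d at 25.2, Sult1c2 at 21.7 and Ces1f at 21.6. At the other end of the detected rows stood Ces1b at 0.260 and Sult6b1 at 0.314 CPM per kb. The order thus mixed all 3 families, and each had a member above 100 CPM per kb.

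**Figure D2:**
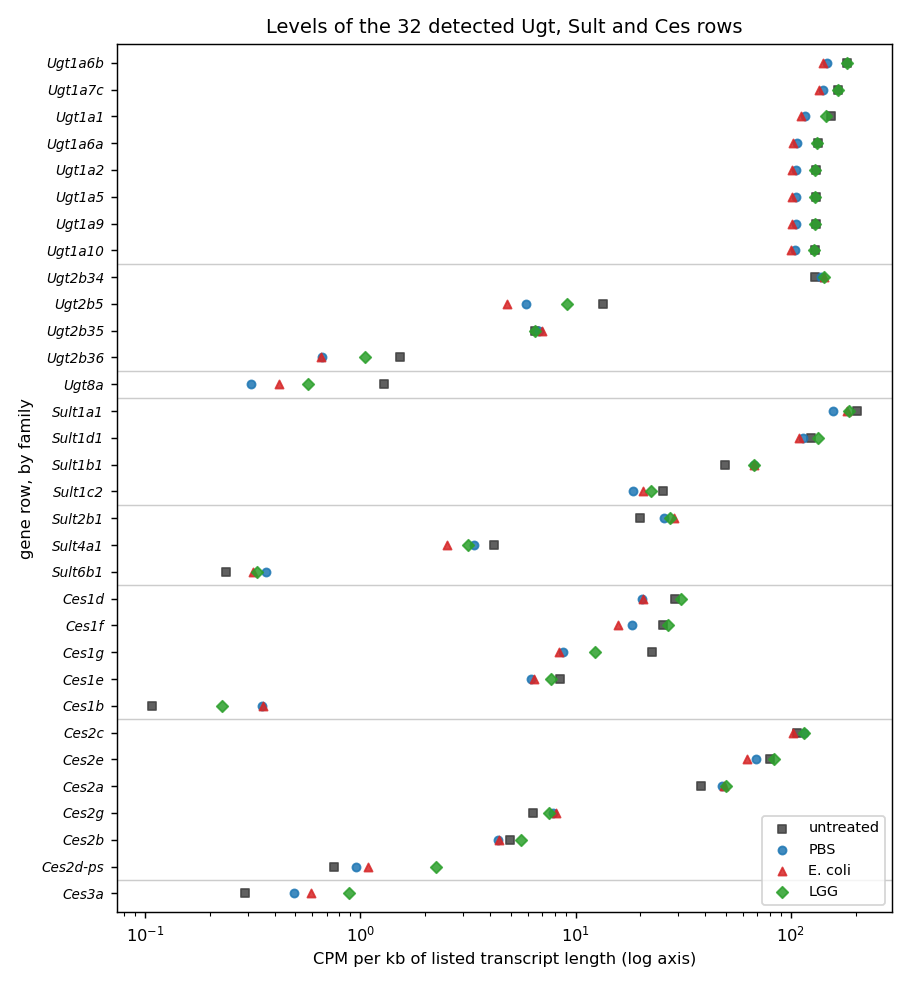
CPM per kb of listed transcript length (log axis) of the 32 detected rows, grouped by family, with 1 symbol for each library. Most rows have their 4 symbols close together; Ugt2b5, Ugt2b36, Ugt8a, Ces1g, Ces1b, Ces2d-ps and Ces3a are spread 2-fold or more from the lowest to the highest library.

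The detected rows by family were all 8 of Ugt1, 4 of 10 of Ugt2, 1 of 1 of Ugt8, none of 2 of Ugt3, 4 of 6 of Sult1, 3 of 12 of the higher Sult families, 5 of 7 of Ces1, 6 of 8 of Ces2 and 1 of 4 of Ces3 to Ces5. Of the 26 rows not detected, 13 were at 0 in every library. These were all 7 Sult2a rows, which encode hydroxysteroid and bile acid sulfotransferases, the oestrogen sulfotransferase Sult1e1, Sult1c1, Sult3a1, Ugt3a1, Ces4a and Ces5a. The other 13 were counted in at least 1 library but stayed below the threshold, among them Ugt2a3 with 9 counts in untreated colon, 0 after PBS, 0 after E. coli and 2 after LGG. Near the threshold, Ces1b (0.507 CPM) and Sult6b1 (0.644 CPM) were just inside it, and Ces1c (0.442 CPM) and Ugt2b1 (0.427 CPM) were just outside.

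Most detected rows differed by less than 2-fold across the 4 libraries. The highest library exceeded the lowest by a median factor of 1.35 over the 32 rows, against 1.20 over the 15286 detected genes, and 7 of the 32 differed by 2-fold or more, as did 766 of the 15286 genes. Ugt2b35 (1.08-fold), Ugt2b34 (1.10-fold) and Ces2c (1.13-fold) varied least, and Ugt8a varied most (4.12-fold). Across 6 pairs of libraries, 6 members were past the size rule in at least 1 pair, namely Ces1g, Ugt2b5, Ugt2b36, Ugt8a, Ces2d-ps and Ces3a.

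Against the untreated library, 4 of the 30 members with at least 1 CPM were past the rule after PBS, all lower, where 1.45% of all genes were past it and 0.782% on the lower side. The same 4, namely Ces1g, Ugt2b5, Ugt2b36 and Ugt8a, were past it and lower after E. coli, beside 2.35% of all genes, 1.53% lower and 0.824% higher. After LGG, 3 were past it, Ugt8a on the lower side and Ces2d-ps and Ces3a on the higher, beside 1.04% of all genes, 0.588% lower and 0.457% higher. These pairs share the untreated library, so their agreement is not a repeat measurement. Without that library, 1 member, Ces2d-ps, was past the rule and higher in LGG against PBS (0.277% of all genes, 0.180% higher) and in LGG against E. coli (0.360%, 0.263% higher). None was in E. coli against PBS (0.415%, of which 0.173% higher and 0.242% lower).

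**Figure D3:**
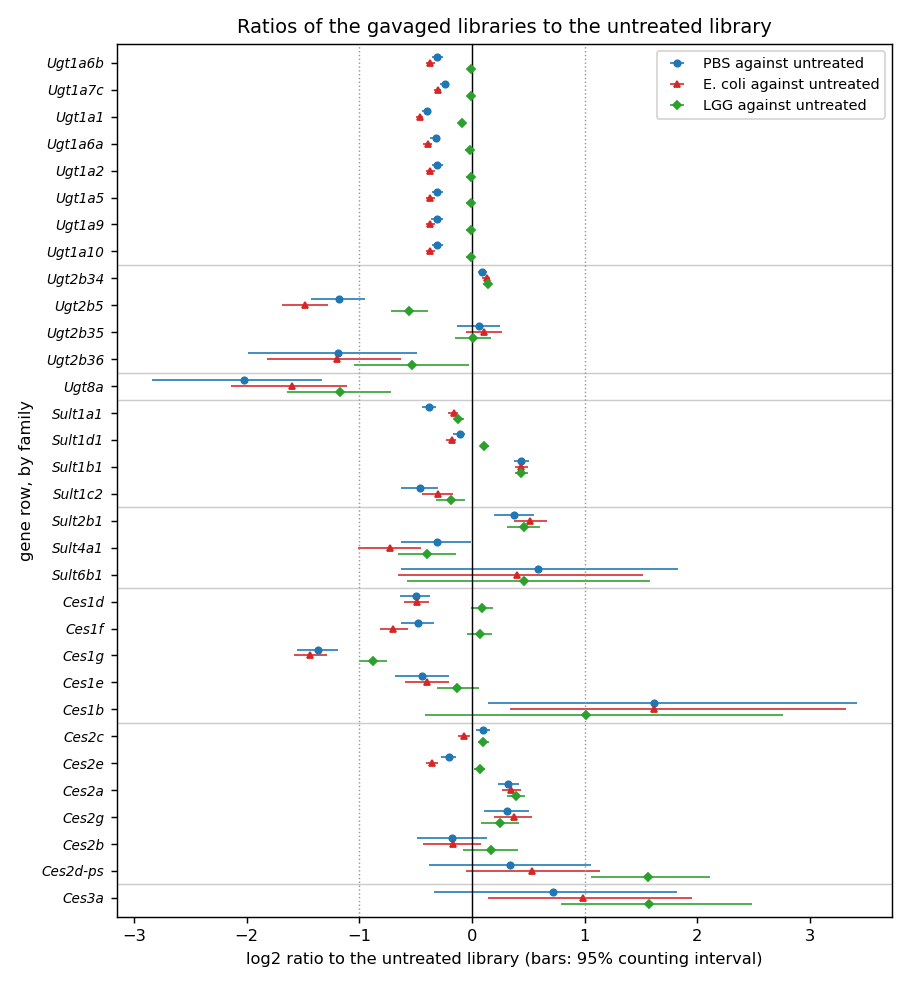
Log2 ratios of the PBS, E. coli and LGG libraries to the untreated library for the 32 detected rows by family, with 95% counting intervals; dotted lines mark a 2-fold difference. Ces1g, Ugt2b5, Ugt2b36 and Ugt8a lie beyond the lower line after PBS and E. coli, while LGG lies closer to 0 for all 4.

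Among the Ugt2 genes, which conjugate steroids and bile acids, the rows fell into a steady and a varying pair. Ugt2b34 (NM_153598, chromosome 5, 87318795 to 87335962 in mm9) had 396 CPM in untreated colon, 421 after PBS, 432 after E. coli and 436 after LGG. Ugt2b35 was at 21.7, 22.7, 23.4 and 21.8 CPM in the same order. All 4 libraries were thus close for both genes, and every log2 ratio of Ugt2b34 lay between 0.01 and 0.14.

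Ugt2b5 (NM_009467, chromosome 5, 87553972 to 87569365 in mm9) had 25.2 CPM in untreated colon, 11.1 after PBS, 9.02 after E. coli and 17.2 after LGG. The LGG library lay between the untreated library and the other 2. Its log2 ratios against untreated were -1.18 (-1.43 to -0.95) for PBS, -1.48 (-1.69 to -1.28) for E. coli and -0.56 (-0.72 to -0.39) for LGG, and LGG against E. coli was 0.93 (0.71 to 1.15). Ugt2b36 (NM_001029867) was at 2.87, 1.25, 1.24 and 1.98 CPM in the untreated, PBS, E. coli and LGG libraries. The order was the same as for Ugt2b5, from 82, 20, 36 and 58 counts. Reads of Ugt2b5 can be shared with near-identical genes, since 41.7% of its 50-base windows occur in other members, most of them in Ugt2b38, which had 3 counts in the LGG library and 0 elsewhere.

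Ugt8a (NM_011674, chromosome 3, 125568261 to 125641468 in mm9) differs from the rest in function: it attaches galactose to ceramide, the start of the myelin lipids galactosylceramide and sulfatide. It was at 4.62 CPM in untreated colon, 1.12 after PBS, 1.51 after E. coli and 2.05 after LGG, from 132, 18, 44 and 60 counts. The untreated library was the highest, at a log2 ratio of -2.02 (-2.84 to -1.33) for PBS against untreated, and LGG was above PBS by 0.86 (0.09 to 1.72). In the glia list, which also holds Ugt8a, 2 other genes of that pathway varied less: Fa2h, which makes the hydroxylated fatty acid, was at 128 to 170 CPM, and Gal3st1, which adds the sulfate, at 41.0 to 51.1 CPM. Of the 12 glia genes with at least 1 CPM, Ugt8a alone was past the rule for PBS and for LGG against untreated, and Ugt8a and Gfap were for E. coli. Over all genes the shares were 1.45% for PBS, 1.04% for LGG and 2.35% for E. coli. The summed level of the list was 1161 to 1246 CPM, with Mobp at 0 and the myelin genes Mog and Mag at 0.0683 to 0.499 CPM. The part of glia in the Ugt8a values was not tested.

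**Figure D4:**
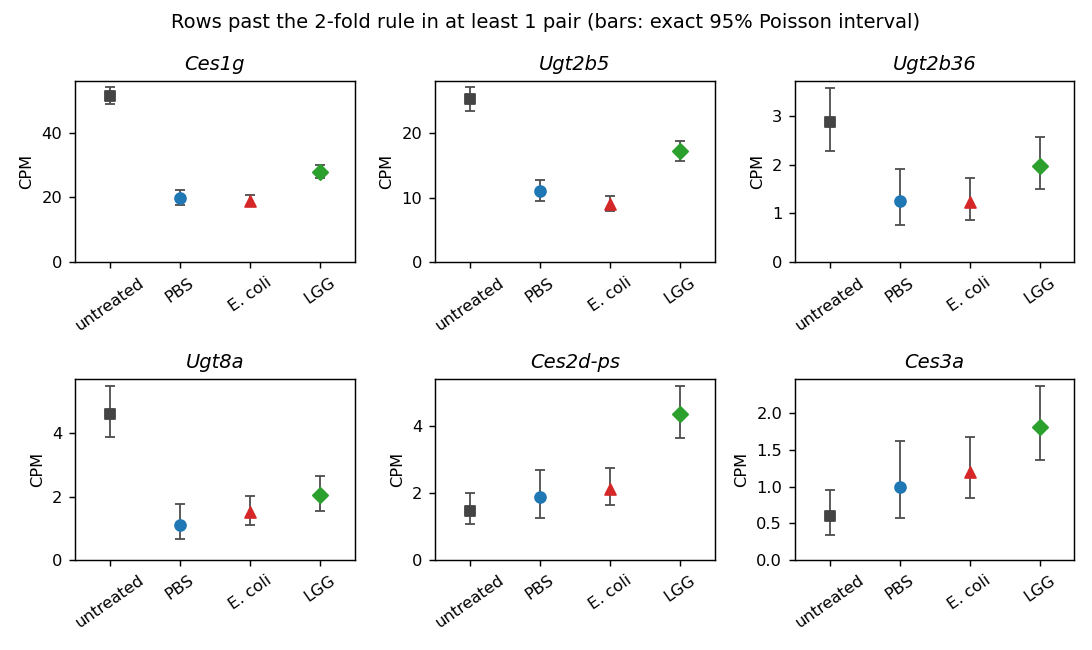
CPM in the 4 libraries, with exact 95% Poisson intervals for counting error, of the 6 rows past the 2-fold rule in at least 1 pair. Ces1g, Ugt2b5, Ugt2b36 and Ugt8a are highest in the untreated library; Ces2d-ps and Ces3a are highest in the LGG library, at 4.37 and 1.81 CPM.

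None of the 6 sulfotransferase rows with at least 1 CPM was past the rule in any pair, beside 0.277% to 2.35% of all genes per pair. Sult1a1 (NM_133670, chromosome 7, 133816384 to 133819871 in mm9) had 277 CPM in untreated colon, 213 after PBS, 248 after E. coli and 255 after LGG. PBS was the lowest, and both bacterial libraries exceeded it, by a log2 ratio of 0.22 (0.16 to 0.27) for E. coli and 0.26 (0.20 to 0.32) for LGG. Sult1d1 (NM_016771) was at 295, 273, 260 and 319 CPM in the untreated, PBS, E. coli and LGG libraries, a narrow range in which LGG exceeded E. coli by 0.29 (0.25 to 0.34).

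Sult1b1 (NM_019878, chromosome 5, 87942364 to 87967220 in mm9) went the other way from Sult1a1. It had 129 CPM in the untreated library and 175, 176 and 176 CPM after PBS, E. coli and LGG. The 3 gavaged libraries were level with each other, with log2 ratios between them of 0.00 to 0.01, and each was above the untreated library by 0.44. Sult2b1 had the same shape, at 22.5 CPM in the untreated library and 29.1, 32.2 and 30.9 after PBS, E. coli and LGG. Sult4a1, which is best known from neurons, was at 9.91, 7.98, 5.99 and 7.52 CPM, highest in the untreated and lowest in the E. coli library, at -0.73 (-1.01 to -0.45) for that pair. All 12 enteric neuron genes also had negative ratios in that pair, with a median of -0.67 and a summed level of 202 CPM in the untreated and 134 in the E. coli library. Whether they have a part in the Sult4a1 value was not tested.

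The Ces1 genes lie together on chromosome 8, from 95544114 to 95861108 in mm9, and include enzymes that hydrolyse triacylglycerol and cholesteryl esters. Ces1g (NM_021456, 95826268 to 95861108 in mm9), which is known from liver and intestine, was at 51.4 CPM in untreated colon, 19.9 after PBS, 19.0 after E. coli and 28.0 after LGG. All 3 gavaged libraries were below the untreated one, with log2 ratios of -1.37 (-1.55 to -1.19) for PBS, -1.44 (-1.58 to -1.29) for E. coli and -0.88 for LGG. LGG was above both PBS, by 0.49 (0.30 to 0.68), and E. coli, by 0.56 (0.40 to 0.72). Of its 50-base windows, 1.67% occur in other members.

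Ces1d and Ces1f showed a plainer split. Ces1d (NM_053200, 95689971 to 95721703 in mm9), a triacylglycerol hydrolase of liver and fat, was at 56.5 CPM in the untreated and 60.3 in the LGG library, but 39.9 in the PBS and 40.1 in the E. coli library. Ces1f (NM_144930) was at 48.6, 51.0 and 34.8 CPM in the first 3 of these, and lower still after E. coli, at a log2 ratio of -0.21 (-0.37 to -0.06) against PBS. Both genes were thus level between untreated and LGG, at log2 ratios of 0.09 (-0.01 to 0.19) and 0.07 (-0.04 to 0.18), and higher after LGG than after E. coli, by 0.59 (0.48 to 0.70) and 0.76 (0.64 to 0.89). Ces1e was at 17.4 and 15.9 CPM in the untreated and LGG libraries and at 12.8 and 13.2 in the PBS and E. coli libraries. None of these differences reached 2-fold. Ces1b ran the opposite way at 0.210, 0.685, 0.689 and 0.444 CPM in the untreated, PBS, E. coli and LGG libraries, from 6, 11, 20 and 13 counts.

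Adipocyte markers are given beside Ces1d because fat cells express it. Their summed level over 14 genes was 422 CPM in untreated colon, 326 after PBS, 276 after E. coli and 403 after LGG, and all 14 had counts. Adipoq was at 11.4, 8.91, 5.16 and 10.8 CPM. Its log2 ratio was -0.78 for E. coli against PBS, where that of Ces1d was 0.01 (-0.13 to 0.15). Against untreated, Adipoq and Ces1d were at -0.35 and -0.50 for PBS, -1.13 and -0.49 for E. coli, and -0.07 and 0.09 for LGG. For LGG they were at 0.28 and 0.59 against PBS, and at 1.06 and 0.59 against E. coli. The part of adipocytes in the Ces1d values was not tested.

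The Ces2 genes, carboxylesterases that dominate in the intestine, lie elsewhere on chromosome 8, from 107257903 to 107544310 in mm9. Of their 6 detected rows, Ces2d-ps was spread 2.97-fold and the others 1.13-fold to 1.34-fold. Ces2c (NM_145603, 107370968 to 107378382 in mm9) had 210 CPM in untreated colon, 226 after PBS, 200 after E. coli and 225 after LGG. Ces2e (NM_172759) was at 214, 186, 168 and 225 CPM, so LGG exceeded E. coli by a log2 ratio of 0.42 (0.37 to 0.47). Ces2a had 74.7 CPM in the untreated library and 93.5, 95.5 and 98.0 after PBS, E. coli and LGG, the same shape as Sult1b1. Ces2g was at 18.0 to 23.2 CPM, lowest in the untreated library, and Ces2b at 8.23 to 10.5 CPM.

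Ces2d-ps (NR_033726, chromosome 8, 107391324 to 107397982 in mm9), listed as a pseudogene with a non-coding accession, was the only member past the rule between gavaged libraries. It had 42 counts in untreated colon, 30 after PBS, 62 after E. coli and 128 after LGG, or 1.47, 1.87, 2.13 and 4.37 CPM. The LGG library was above the other 3, by log2 ratios of 1.56 (1.06 to 2.11) for untreated and 1.22 (0.64 to 1.85) for PBS. For E. coli the ratio was 1.03, with 0.59 as the lower bound, and fell below 2-fold when the prior was raised from 0.5 to 5 counts. Of its 50-base windows, 47.2% occur in other members, most of them in its neighbour Ces2c, so its reads are uncertain; Ces2c itself differed by -0.01 (-0.07 to 0.05) in LGG against PBS. Ces3a was at 0.596, 0.997, 1.20 and 1.81 CPM in the untreated, PBS, E. coli and LGG libraries, from 17 to 53 counts. It shares 30.9% of its windows with other members, almost all with Ces3b, which had 4, 3, 11 and 14 counts.

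**Figure D5:**
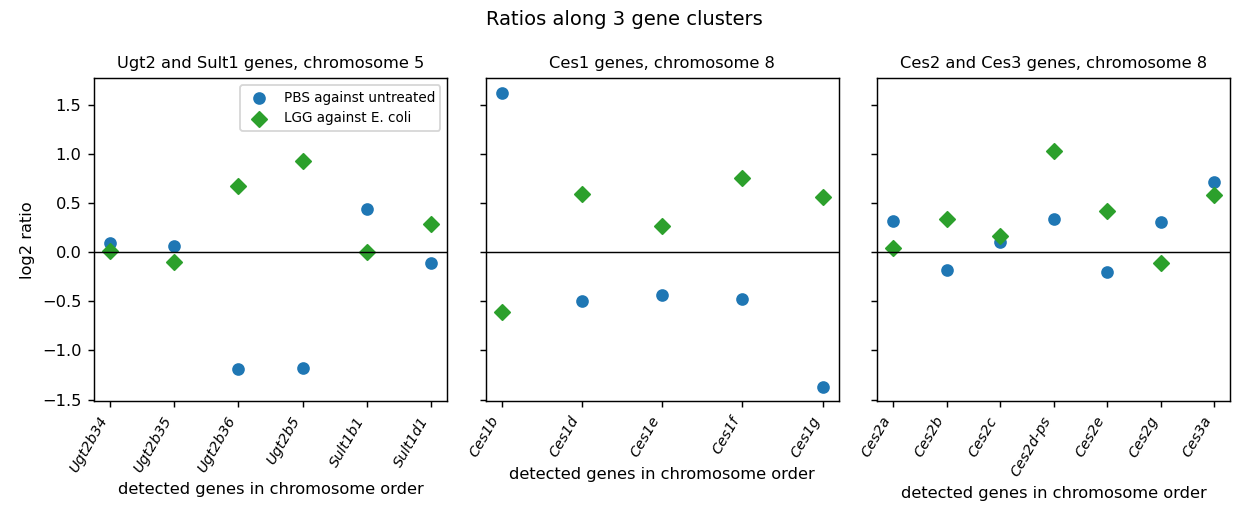
Log2 ratios of PBS against untreated and of LGG against E. coli, which share no library, for the detected genes in chromosome order along 3 clusters. Ugt2b36 and Ugt2b5 are below 0 in the former and above 0 in the latter, as are Ces1d, Ces1e, Ces1f and Ces1g, while Ugt2b34 and Ugt2b35 stay within 0.10 of 0.

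Position along the chromosome grouped the values over parts of a cluster and not over a cluster as a whole. The chromosome 5 cluster, from 87318795 to 88020636 in mm9, holds 13 member rows of which 6 were detected, 4 Ugt and 2 Sult. Its Ugt2b36 and Ugt2b5 genes, side by side, were at -1.19 and -1.18 in PBS against untreated, between Ugt2b35 at 0.06 and Sult1b1 at 0.44. On chromosome 8, the 4 genes from Ces1d to Ces1g lay between -0.44 and -1.37 in that pair, and those of the Ces2 group between -0.20 and 0.34. Ces1b, in the cluster of Ces1d, was at 1.62 from 11 counts after PBS and 6 in untreated colon. Ces3a, beside the Ces2 group, was at 0.72 from 16 and 17 counts.

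An order of the libraries recurred among the members. In 20 of the 32 detected rows, both the untreated and the LGG library were above both the PBS and the E. coli library, which held for 17.9% of all detected genes. Without the 8 Ugt1a rows, which count shared reads, it held for 12 of 24, namely Ugt2b5, Ugt2b36, Ugt8a, Sult1a1, Sult1d1, Sult1c2, Ces1d, Ces1e, Ces1f, Ces1g, Ces2b and Ces2e. The reverse held for 3 of the 32, namely Ugt2b35, Ces1b and Ces2g, beside 19.5% of all genes. The stricter order untreated, LGG, PBS, E. coli, from high to low, held for 6.35% of all genes and for 11 members, the 8 Ugt1a rows with Ces1g, Ugt2b5 and Ugt2b36. The untreated library was the highest of the 4 in 16 of 32 rows and in 8 of 24 outside Ugt1a, beside 33.8% of all genes. It was the lowest in 10 of 32 rows and in 10 of 24 outside Ugt1a (41.7%), beside 33.5%. These patterns were chosen after the values were seen.

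The median log2 ratio over the 32 detected rows was -0.31 for PBS, -0.33 for E. coli and 0.00 for LGG against untreated, and 0.30 for LGG against PBS, -0.03 for E. coli against PBS and 0.35 for LGG against E. coli. Over all detected genes each of these medians lay between -0.01 and 0.00. Over the 24 rows outside Ugt1a they were -0.15, -0.17, 0.10, 0.27, 0.01 and 0.28, so the Ugt1a rows weigh on the figures for PBS and E. coli. Ratios above 0 were found for 28 of 32 rows in LGG against E. coli (49.6% of all detected genes) and for 26 in LGG against PBS (49.2%). They numbered 15 in E. coli against PBS (50.7%). Against untreated they numbered 11 for PBS (49.9%), 10 for E. coli (50.4%) and 16 for LGG (49.2%). None of these was a Ugt1a row, so the same 11, 10 and 16 stood among the 24 rows outside Ugt1a. Of those 24, 20 were above 0 in LGG against E. coli, 18 in LGG against PBS and 15 in E. coli against PBS.

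Markers of position along the colon differed between the same libraries and are given beside these values. The homeobox gene Hoxb6 was at 33.1 CPM in untreated colon, 11.7 after PBS, 7.95 after E. coli and 17.0 after LGG, and Osr2 at 57.0, 22.8, 17.1 and 30.1. Of the 10 proximal colon genes, 3 went the other way in PBS against untreated. These were Insl5 (39.8 CPM in untreated colon and 69.5 after PBS), Car2 (647 and 1105) and Saa1 (954 and 1698). Over the 10 proximal colon genes the median log2 ratio was -1.10 for PBS, -1.44 for E. coli and -0.45 for LGG against untreated. Their summed level, in which the abundant genes weigh most, had the opposite order, at 2225 CPM in untreated colon and 3193 to 3244 after gavage. The 10 distal genes measured had medians of 0.27, 0.63 and 0.17, with Hoxd13 at 21.2, 24.9, 39.1 and 15.4 CPM. Ratios above 0 were found for 8 of them in PBS, 9 in E. coli and 5 in LGG against untreated. Hoxd10 was highest in the untreated library, at 8.69, 4.86, 6.75 and 3.96 CPM. Of the 15 small intestinal genes measured, 6 were lower and none higher past the rule in PBS against untreated, beside 0.782% and 0.664% of all genes. Ratios above 0 in that pair were found for 3 of the 15. Apoa4 was at 45.8 CPM in untreated colon and 1.25 after PBS. No gene of the proximal, distal or small intestinal lists was at 0 in all libraries. The summed level was 430 to 590 CPM for the distal and 1001 to 1236 for the small intestinal list. The part of the piece's position in the Ugt and Ces values was not tested, and with 1 library per condition it cannot be told apart from the treatment.

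On the supply side of glucuronidation, 10 genes with at least 1 CPM make, move or release glucuronic acid. None was past the rule in any pair. The share over all genes was 0.277% to 2.35% per pair, so none of 10 lies near it. Ugdh, which makes UDP-glucuronic acid, was at 589 CPM in untreated colon, 527 after PBS, 529 after E. coli and 618 after LGG. Akr1a1, an aldehyde reductase that uses glucuronate, was at 456 to 524 CPM. Slc35d1, which carries the donor into the endoplasmic reticulum, was at 80.8, 59.3, 52.9 and 65.4 CPM, and Gusb, the lysosomal enzyme that removes glucuronic acid, at 42.3, 49.9, 46.1 and 43.7. Ugdh was higher in untreated colon and after LGG than after PBS and E. coli.

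For sulfonation, none of 17 measured genes was past the rule in any pair, beside 0.277% to 2.35% of all genes per pair. The PAPS synthase Papss2 was at 382 to 409 CPM and Papss1 at 205 to 220. Sulfate carriers differed more: Slc26a3, which exchanges chloride for bicarbonate and also carries sulfate, had 859 CPM in the untreated library and 1575, 1673 and 1543 after PBS, E. coli and LGG, and Slc26a2 at 262, 365, 404 and 316. Both were lowest in the untreated library, as Sult1b1 and Sult2b1 were, but the sulfate carriers Slc13a1 (54.9, 39.0, 35.3 and 50.7 CPM) and Slc26a6 (5.54, 4.49, 4.27 and 4.72) were highest there.

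Among 19 other esterases and lipases, Cel, a bile salt-dependent lipase of the exocrine pancreas, was past the rule in all 6 pairs and no other gene was in any. The share over all genes was 0.277% to 2.35% per pair. Cel was at 0.0701, 1.06, 6.06 and 2.53 CPM in the untreated, PBS, E. coli and LGG libraries, and all 14 measured pancreatic acinar genes were higher after PBS than in the untreated library, by a median log2 ratio of 2.53. Nceh1, a cholesteryl ester hydrolase, was at 60.6, 35.6, 32.9 and 42.5 CPM, and Aadac, an esterase of liver and gut, at 30.7, 39.8, 37.8 and 40.5.

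Of 20 measured transporters of conjugates, Slc51a, a subunit of the basolateral bile acid exporter, was at 99.8 CPM in untreated colon, 38.1 after PBS, 28.9 after E. coli and 53.2 after LGG. It followed the order of Ugt2b5 and was past the rule after PBS and E. coli against untreated. Slc22a3, at 1.89, 1.18, 0.792 and 1.67 CPM, was past it in E. coli against untreated and in LGG against E. coli. Over all genes, 1.45% were past it in PBS against untreated, 2.35% in E. coli against untreated and 0.360% in LGG against E. coli. The conjugate exporters Abcc3, at 302 to 344 CPM, and Abcg2, at 93.5 to 113, stayed within narrow ranges.

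None of 24 transcription factors known to control such genes was past the rule in any pair, beside 0.277% to 2.35% of all genes per pair. Nr1i2, the xenobiotic sensor PXR, was at 73.3 to 84.1 CPM, the aryl hydrocarbon receptor Ahr at 19.8 to 24.3, Hnf4a at 809 to 921 and Nfe2l2, which encodes Nrf2, at 202 to 211. Cdx1, the most abundant of the 24 per kb after Hnf4a, was at 255 to 300. Cdx2, a homeobox factor of intestinal identity, was at 236 CPM in the untreated and 225 in the LGG library against 149 after PBS and 148 after E. coli. Its log2 ratio of LGG against E. coli was 0.60 (0.55 to 0.66). Ppara, the fatty acid receptor, was at 60.7, 46.1, 41.9 and 48.5 CPM in the untreated, PBS, E. coli and LGG libraries.

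Of 13 other conjugating enzymes none was past the rule in any pair, beside 0.277% to 2.35% of all genes per pair. Their medians were 0.15 for PBS against untreated and 0.14 for LGG against PBS. The most abundant per kb were the microsomal glutathione transferases Mgst3, at 267, 299, 302 and 358 CPM in the untreated, PBS, E. coli and LGG libraries, and Mgst2, at 71.6 to 97.9 CPM. In the list of hormone and retinoid genes that share substrates with these families, 18 genes were measured. Past the rule in PBS against untreated, 1 was higher and 1 lower, beside 0.664% and 0.782% of all genes. These were the retinol dehydrogenases Rdh16, at 16.3 CPM in the untreated and 36.3 in the PBS library, and Rdh1, at 3.08 and 1.18. In E. coli against untreated 2 were higher, Rdh16 and the retinol-binding protein Rbp2 (18.4 CPM in untreated colon and 37.6 after E. coli), and 2 lower, Rdh1 and Hsd17b13 (12.3 and 5.54). Over all genes the shares in that pair were 0.824% higher and 1.53% lower. Rdh1 was also lower in LGG against untreated, and none was past the rule between gavaged libraries.

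Promoter sequence is shown for Ces1g, Ugt2b5 and Ugt2b36, members that were lowest after PBS and E. coli, with Ugt2b34 as the steady neighbour. These are RefSeq windows on GRCm38.p6, the 250 bases before the annotated start, and 47 of the 58 members had an entry. Capitals mark matches on either strand to AGGTCA, the element of nuclear receptors, GCGTG, the core bound by the aryl hydrocarbon receptor, TGACNNNGC, the core bound by Nrf2, CACGTG, the element of clock activators, and TATAAA.
Ces1g, chr8:93337210-93337459, minus strand: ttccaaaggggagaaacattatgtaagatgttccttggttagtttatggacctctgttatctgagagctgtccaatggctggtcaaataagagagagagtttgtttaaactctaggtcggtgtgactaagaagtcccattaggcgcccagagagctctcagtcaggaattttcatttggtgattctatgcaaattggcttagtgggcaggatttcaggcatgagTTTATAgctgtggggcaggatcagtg
Ugt2b5, chr5:87140341-87140590, minus strand: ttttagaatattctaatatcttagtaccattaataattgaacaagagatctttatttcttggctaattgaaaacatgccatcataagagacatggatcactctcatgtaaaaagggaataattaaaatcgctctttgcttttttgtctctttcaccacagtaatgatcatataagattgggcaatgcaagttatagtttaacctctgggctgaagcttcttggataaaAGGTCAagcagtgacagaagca
Ugt2b36, chr5:87092556-87092805, minus strand: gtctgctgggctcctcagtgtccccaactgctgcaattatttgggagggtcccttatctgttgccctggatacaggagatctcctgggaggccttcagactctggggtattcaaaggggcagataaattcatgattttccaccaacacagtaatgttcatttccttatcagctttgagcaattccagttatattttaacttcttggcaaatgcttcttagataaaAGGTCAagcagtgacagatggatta
Ugt2b34, chr5:86906938-86907187, minus strand: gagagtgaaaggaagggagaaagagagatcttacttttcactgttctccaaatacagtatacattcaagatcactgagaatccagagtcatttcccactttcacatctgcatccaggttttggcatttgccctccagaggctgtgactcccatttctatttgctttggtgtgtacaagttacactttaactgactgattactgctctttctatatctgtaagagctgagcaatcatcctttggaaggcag
Ugt2b5 and Ugt2b36 each held AGGTCA close to the start, at -22 and -25, within a stretch of 24 bases that both windows share. The Ugt2b34 window held none of these motifs, and its longest stretch in common with Ugt2b5 was 9 bases. Ces1g held TATAAA at -26 and no AGGTCA. Windows not printed were searched as well. AGGTCA was in that of Ugt1a7c, at -242, whose part above the shared exons was nearly flat. It was absent from those of Ugt1a1, Ugt1a6a and Ugt8a, which were highest in the untreated library. For Ugt1a7c and Ugt8a, the bases checked after the annotated start were not found in a GENCODE transcript of the gene. The starts of these windows, and so their matches, are less certain than the others. GTTAAT, also searched, was absent from the printed windows but present in those of Ugt1a1, at -41, and Ugt1a6a, at -50. Over all 32851 promoter windows of that length, AGGTCA occurred in 14.0%, GTTAAT in 6.43%, GCGTG in 28.2%, TGACNNNGC in 10.2%, CACGTG in 6.02% and TATAAA in 12.4%. A match describes letters in the window and not binding.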

How the data were processed

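RNA-seq libraries were made from colon RNA by the TruSeq RNA v2 protocol of Illumina, per the labels. TopHat2, HOMER and build mm9 are named in the submitters' processing notes, and no version, role or strand setting is given in the sources used here. Expected counts per RefSeq row, in steps of 0.5, were deposited as 1 table and rounded to whole numbers, ties to the even one. Counts were scaled with TMM factors (1.05, 0.985, 0.989 and 0.979 for untreated, PBS, E. coli and LGG) from edgeR 4.0.16 in R 4.3.3, and Python 3.11.15 (numpy 2.4.6, pandas 2.3.3, scipy 1.17.1) gave CPM and log2 ratios with a prior of 0.5 counts. Intervals are exact conditional binomial (Clopper-Pearson). The labels name no molecular identifiers, so reads are not independent molecules and intervals cover counting error only. Where counts come in pairs, as the even counts of some rows may reflect, the intervals are too narrow for that as well. The size rule and intervals were tested on simulated independent Poisson counts, which do not cover that case. All members are accounted for; those past the rule in any pair and the 2 most abundant per kb of each family are given in full, and in each pathway list up to 4 members past the rule or the 2 most abundant per kb, others being chosen after their values were seen. The members and lists were chosen with earlier results of these data known. Alternatives were library totals, DESeq2 1.42.0 size factors or upper-quartile factors, other filters, a 1.5-fold threshold, a prior of 5 counts and other treatments of the Ugt1a rows. Figures were drawn with matplotlib 3.10.9.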

Additional observations from a re-analysis of the deposited data

How the results depend on the processing

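The number of detected members, 32, and the 6 medians kept within the limits set for them under each scaling, filter and prior tried, with 1 exception. The median for E. coli against untreated was -0.17 with the Ugt1a rows summed as 1. The limit for a median came from the median width of the counting intervals, so smaller shifts counted as kept. The median for PBS against untreated also depends on the Ugt1a rows, at -0.31 with them and -0.15 without. With a mean of at least 5 CPM required, the members past the rule numbered 2 for PBS and 2 for E. coli against untreated, and 0 for LGG against PBS, LGG against E. coli and LGG against untreated. With no filter they numbered 5 for LGG and 9 for E. coli against untreated. At 1.5-fold they numbered 5 for LGG against PBS, 5 for LGG against E. coli and 7 for E. coli against untreated. A prior of 5 counts left 0 for LGG against E. coli, with Ces2d-ps at a log2 ratio of 0.97. No called ratio of a named member changed sign under any scaling or prior. Taking the Ugt1a rows less the Ugt1a10 row, an alternative added after seeing the data, adds Ugt1a1 to the members past the rule in PBS and in E. coli against untreated. No paired analysis was possible because each group has 1 library. Leaving out a library was not possible for the same reason. Among the members past the rule, depth limits Ugt2b36, Ugt8a, Ces2d-ps and Ces3a most, which rest on 16 to 132 counts per library. Of the other detected members, Ces1b rests on 6 to 20 and Sult6b1 on 12 to 20 counts.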
